A study of Homo sapiens with 12 samples.

Results

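The genes described here are 10 genes of tryptophan breakdown through kynurenine and of NAD synthesis: IDO1, TDO2, KYNU, KMO, HAAO, QPRT, NADSYN1, NMNAT1, NAMPT and NNMT. They were taken as a pathway, with earlier results of these data known, and every probe that the gene table lists with 1 of them and no other gene was taken. That gave 12 probes for 9 of the 10 genes, out of 23194 tested single-gene probes covering 18106 genes. NNMT, the methyltransferase that clears nicotinamide, was reached only by a probe listed with several genes, so no value is given for it. All RNA came from T-HESC, stromal cells of human endometrium made to divide indefinitely by telomerase, so every result is for 1 line. All cultures were kept without serum for 24 h and then received TNFα at 5 ng/ml together with IL1β at 1 ng/ml, TNFα alone, IL1β alone, or vehicle, for 48 h. Each of the 4 groups had 3 arrays from different passages. Replicate 1 of every group was passage 13, replicate 2 was passage 28, and replicate 3 was passage 15. The study asked which genes respond to the cytokines and lists endometriosis among its keywords.

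Tryptophan is opened to kynurenine by IDO1 in many tissues and by TDO2 mainly in liver. KMO hydroxylates kynurenine, KYNU cleaves kynurenine and its hydroxylated form, HAAO opens the ring of the product, and QPRT turns the resulting quinolinic acid into the first nucleotide of the NAD route. NMNAT enzymes then add the adenylate and NADSYN1 completes NAD. NAMPT starts a separate salvage route, in which nicotinamide released by NAD-consuming enzymes is used again. IDO1 is known as an interferon-induced enzyme of immune tolerance in the endometrium and at the border of mother and fetus.

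The values are single-colour array intensities on a linear scale, with the median probe of each array close to 1. Changes are differences of log2 intensity, tested with limma in 1 model of all 12 arrays. A probe was called at a Benjamini-Hochberg adjusted p under 0.05 over 53671 probes. With 3 arrays a group an exact permutation test cannot go below p = 0.1, and the number of arrays limits the precision throughout. Between 52944 and 53507 probes an array had a positive signal. On the first principal component, with 22.6% of the variance, vehicle replicate 3 (171), TNFα replicate 3 (68.7) and IL1β replicate 2 (53.0) lay apart at one end and vehicle replicate 1 (−84.8) at the other. The 3 arrays that lay apart, as named below, are those at the first end only. Vehicle replicate 1 was kept in that setting, though it lay farther out than TNFα replicate 3 and IL1β replicate 2. All 9 measured stromal markers of 10 listed, among them COL1A1, DCN and PDGFRB, lay above the array median on all 12 arrays. Their summed intensity was 1609 to 1772 with both cytokines, 1110 to 1959 with TNFα, 1071 to 1813 with IL1β and 1112 to 2672 with vehicle. Of 8 measured leukocyte markers, CD68, ITGAX and CD3E lay above the array median on all 12 arrays. PTPRC, CD14, CD163 and LYZ lay below it on all 12, and CSF1R lay below it on 11. The summed intensity of the 8 was 11.75 to 12.85 with both cytokines, 10.2 to 11.4 with TNFα, 9.99 to 13.4 with IL1β and 8.95 to 11.35 with vehicle. Of 7 epithelial markers, KRT19, KRT18, MUC1 and KRT8 lay above the array median on all 12 arrays and KRT7 on 11, while EPCAM and CLDN4 lay below it on all 12. Their sum was 39.6 to 41.5 with both cytokines, 60.0 to 107 with TNFα, 26.8 to 65.2 with IL1β and 87.5 to 122 with vehicle. One of them, the keratin KRT18, fell by 1.58 ± 0.26 on the log2 scale with both cytokines (limma adjusted p = 0.0447). Over all probes 0.248% were called in that comparison. The KRT18 call was close to the threshold, and whether it held with arrays left out was not examined. Of 6 endothelial markers, PECAM1 and TEK lay above the array median on all 12 arrays and KDR and CDH5 below it on all 12, with a sum of 16.4 to 17.8 with both cytokines, 17.6 to 20.6 with TNFα, 14.7 to 17.2 with IL1β and 16.7 to 21.9 with vehicle. The part of these shifts in the results was not tested. In whole cultures more RNA per cell and more cells that make it cannot be told apart.

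With both cytokines KYNU and NAMPT rose against vehicle, KYNU by 3.23 ± 0.52 and NAMPT by 2.29 ± 0.37 in log2 intensity (± SE, 3 arrays per group; limma adjusted p = 0.0431 and 0.0424). Without vehicle replicate 3, TNFα replicate 3 and IL1β replicate 2 the adjusted p was 0.0631 and 0.0701, and neither passed. These are the kynureninase and the rate-limiting enzyme of NAD salvage. They were 2 of the 12 probes called, both higher, and over all probes tested 0.248% were called in that comparison. The median change of the 9 genes, each on its brightest probe, was 0.12, against −0.10 over all genes. The other 10 probes did not pass (adjusted p = 0.220 to 0.978). With TNFα alone and with IL1β alone limma called 0 of the 12, where 0.0466% and 0.00559% of all probes were called. At an unadjusted p under 0.05 there were 2 of the 12 with TNFα, 4 with IL1β and 5 with both cytokines, where 7.05%, 9.67% and 12.9% of all probes were.

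Counts of probes whose groups did not overlap are read against all probes, since separation was common on these arrays. With both cytokines 4 of 11 probes with all 6 values lay wholly above vehicle (KYNU, QPRT and both NAMPT probes) and 2 wholly below (HAAO and NMNAT1), where 7.19% and 14.1% of all probes did so. With TNFα the counts were 2 of 12 above (KYNU and QPRT, against 3.66% of all probes) and 1 below (NMNAT1, against 6.04%). With IL1β they were 2 above (KYNU and NAMPT, against 3.50%) and 2 below (HAAO and NMNAT1, against 9.15%). These 3 comparisons share the same vehicle arrays.

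Between the cytokine treatments limma called 0 of the 12 probes, with 2, 4 and 1 at an unadjusted p under 0.05 for both cytokines over TNFα, both over IL1β and TNFα over IL1β. Over all probes the called share was 0.00186%, 0% and 0%, and the share at an unadjusted p under 0.05 was 5.08%, 4.37% and 5.04%. Both cytokines lay wholly above TNFα alone at 1 of 11 probes (NAMPT, against 6.45% of all probes) and wholly below at 0 (against 14.6%). They lay wholly above IL1β alone at 4 of 11 (KYNU, KMO, QPRT and the second NMNAT1 probe, against 7.97%) and wholly below at 0 (against 6.38%). TNFα lay wholly above IL1β at 2 of 12 (QPRT and the second NMNAT1 probe, against 10.7%) and wholly below at 0 (against 3.65%).

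**Figure D1:**
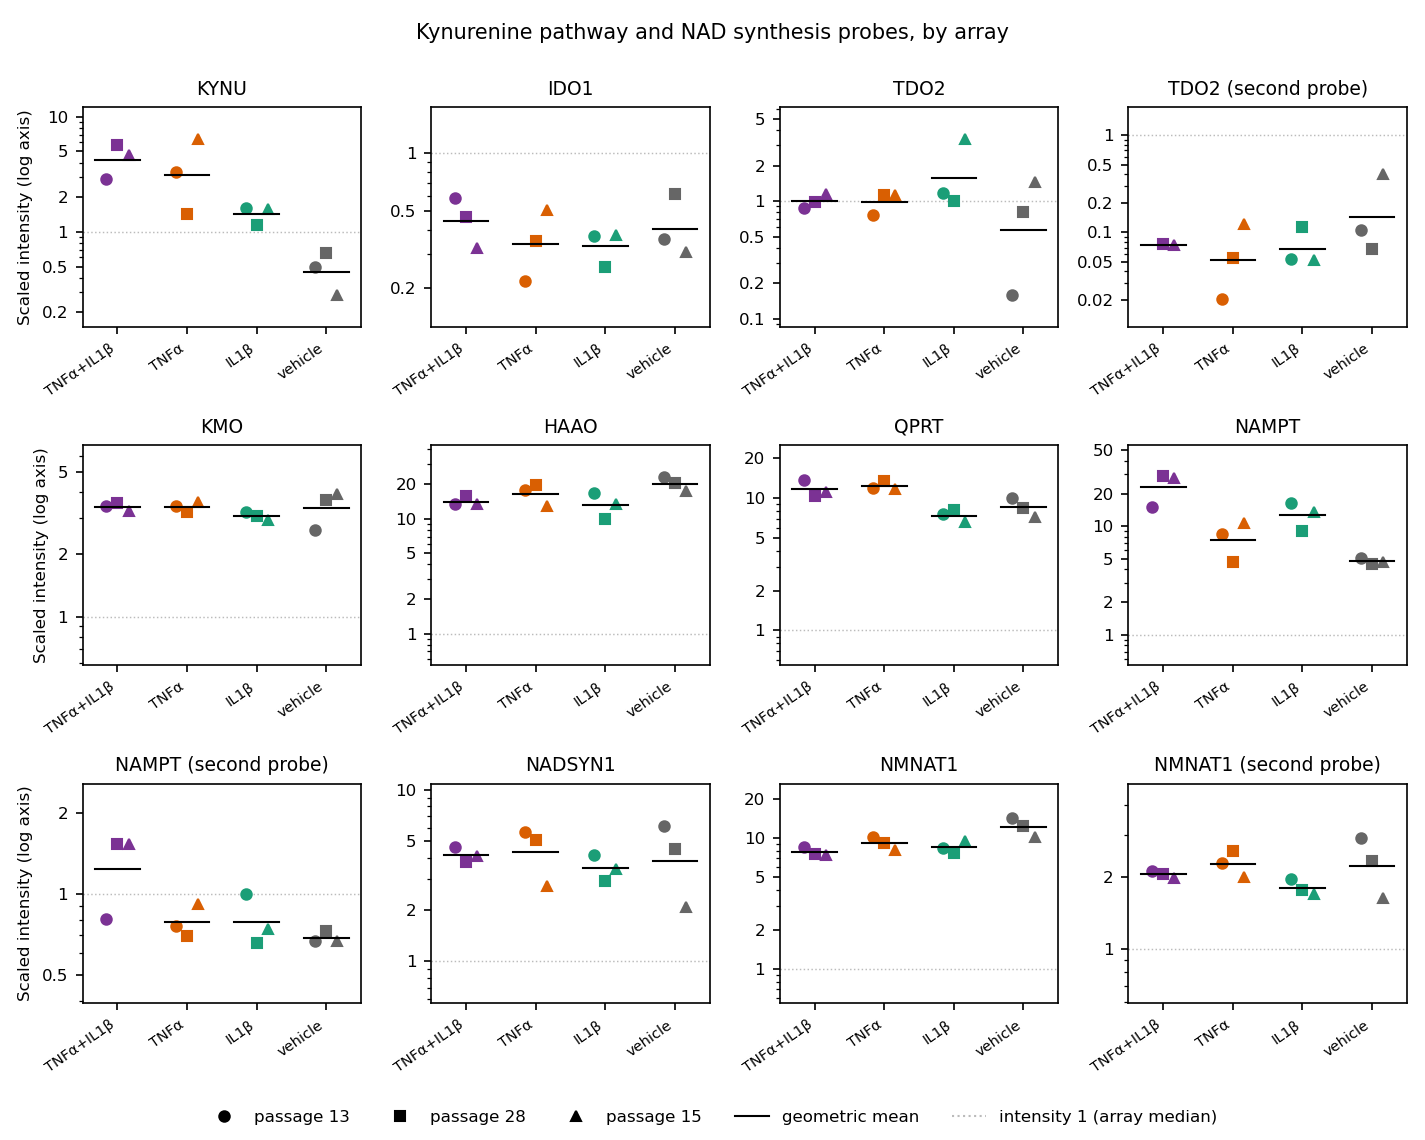
Scaled intensity on a log axis for each of the 12 probes, 1 point per array, with the group shown by colour and the passage by symbol. Bars are geometric means, and the TDO2 second probe lacks 1 array with both cytokines whose value lay below 0. KYNU lies above every vehicle array in all 3 cytokine groups, and IDO1 stays below 1 on every array. The first NAMPT probe lies above every vehicle array with both cytokines and with IL1β, the second only with both cytokines.

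KYNU, on chromosome 2, was dim without cytokine. Its intensity was 2.86, 5.69 and 4.66 with both cytokines (replicates 1 to 3), 3.31, 1.44 and 6.45 with TNFα, 1.62, 1.16 and 1.57 with IL1β, and 0.495, 0.660 and 0.281 with vehicle. All 9 cytokine arrays lay above all 3 vehicle arrays, and the vehicle arrays were the only ones where the probe stood below the array median. Of all probes, 7.19% lay wholly above vehicle with both cytokines, 3.66% with TNFα and 3.50% with IL1β. The share for the 9 arrays together was not counted. The order of the KYNU group means of log2 intensity was both cytokines (2.08 ± 0.51, SD, n = 3), TNFα (1.65 ± 1.08), IL1β (0.52 ± 0.27) and vehicle (−1.15 ± 0.63).

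No neighbours in that order passed the test over all probes, and for the upper 2 pairs the interval of the difference held 0. Both cytokines exceeded TNFα alone by 0.43 (95% interval −0.72 to 1.59; limma adjusted p = 0.987), TNFα exceeded IL1β by 1.13 (−0.03 to 2.28; adjusted p = 0.913), and IL1β exceeded vehicle by 1.67 (0.51 to 2.82; adjusted p = 0.431). The IL1β and vehicle arrays did not overlap and that interval lay above 0, but the interval rests on a variance fitted over all groups. With the compared groups alone the limma adjusted p was 0.836. Of all probes, 3.50% lay wholly above vehicle with IL1β and 9.15% wholly below, and 9.67% had an unadjusted p under 0.05. A difference of KYNU between IL1β and vehicle was therefore not established. The differences that involve TNFα moved with single arrays. Both cytokines minus TNFα was −0.13 without TNFα replicate 2, the lowest of the TNFα arrays, and 0.95 without TNFα replicate 3, the highest, and without replicates 1 and 2 of both cytokines in turn it was 0.72 and 0.22. TNFα minus IL1β was 0.61 without TNFα replicate 3, 1.69 without TNFα replicate 2 and 0.45 without the 3 arrays that lay apart. TNFα alone exceeded vehicle by 2.80 ± 0.52 (adjusted p = 0.160), and without TNFα replicate 2 the difference was 3.36 and passed (adjusted p = 0.0452).

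Averaged over cultures with and without IL1β, TNFα went with 2.18 ± 0.37 more KYNU (n = 6 per arm; limma adjusted p = 0.0881, where 0.0801% of all probes were called). IL1β, averaged likewise over TNFα, went with 1.05 ± 0.37 more (adjusted p = 0.341, where 0.0112% of all probes were called). The departure from adding up, a change of −1.24 ± 0.73 for the pair beyond the sum of the single cytokines, did not pass (adjusted p = 1.0). It was −0.71 without TNFα replicate 3, −0.53 without the 3 arrays that lay apart, and −2.44 to −0.38 with a passage left out.

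The call of KYNU with both cytokines was close to the threshold. With the passage as a block its limma adjusted p was 0.106, and with the compared groups alone it was 0.147. Leaving out any 1 of the 6 arrays also ended the call (0.0622 to 0.167). The log2 change itself stayed between 2.82 and 3.58 under the alternatives run. Within passages 13, 28 and 15 KYNU with both cytokines exceeded its own vehicle culture by 2.53, 3.11 and 4.05, and TNFα alone exceeded it by 2.74, 1.13 and 4.52. IL1β exceeded it by 1.71, 0.81 and 2.49, so the difference was positive in every passage for each treatment. Passage 15, whose vehicle array lay apart, gave the widest difference in each of the 3 treatments.

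The KYNU promoter is shown because KYNU had the widest change of the 12 probes with both cytokines. It is the RefSeq window from 250 bases before to 50 after the gene start, chr2:142877414-142877713 on the plus strand of GRCh38.p14, written 5′ to 3′ with capitals for matches to TTCNNNGAA (the gamma-activated site bound by STAT factors) and TTNNGNAA (a C/EBP pattern).
KYNU: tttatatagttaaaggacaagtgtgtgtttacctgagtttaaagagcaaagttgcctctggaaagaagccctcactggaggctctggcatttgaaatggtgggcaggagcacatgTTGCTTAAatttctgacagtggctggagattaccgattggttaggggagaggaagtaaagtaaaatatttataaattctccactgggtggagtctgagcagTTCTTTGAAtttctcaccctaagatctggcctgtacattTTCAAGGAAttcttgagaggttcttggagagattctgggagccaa
The site pattern TTCNNNGAA occurred at −34 to −26 as TTCTTTGAA and at 6 to 14 as TTCAAGGAA, counted from the gene start. It reads the same on both strands, and 7.66% of 35116 RefSeq promoters of that length held at least 1 match on either strand. The C/EBP pattern matched at −135 to −128 on the minus strand, and 36.8% of promoters held one. The window had no match to the NF-kB consensus (11.3% of promoters) or to the AP-1 pattern TGANTCA (7.71%). A match is a description of letters and not a bound site.

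NAMPT, on chromosome 7, had 2 probes. The first stood at 15.2, 29.3 and 28.0 with both cytokines, 8.45, 4.65 and 10.8 with TNFα, 16.5, 9.08 and 13.5 with IL1β, and 5.06, 4.47 and 4.73 with vehicle. The arrays with both cytokines and those with IL1β all lay above the vehicle arrays, while TNFα replicate 2 lay among them. The fold with both cytokines was 4.88.

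On this first probe IL1β alone stood above TNFα alone, the opposite order to KYNU, although neither difference between the single cytokines passed. For NAMPT, TNFα minus IL1β was −0.75 (95% interval −1.57 to 0.06; limma adjusted p = 0.913), and it was −0.41 without TNFα replicate 2 and −1.25 without the 3 arrays that lay apart. Both cytokines exceeded IL1β by 0.87 (0.06 to 1.69; adjusted p = 1.00) and TNFα by 1.63 (0.81 to 2.44; adjusted p = 0.560). The difference from IL1β was 0.47 without passage 28 and 1.37 without passage 13. Against vehicle, IL1β gave 1.41 ± 0.37 (adjusted p = 0.420) and TNFα 0.66 ± 0.37 (adjusted p = 0.776). The TNFα value was 0.40 without TNFα replicate 3 and 1.01 without TNFα replicate 2.

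Averaged over TNFα, IL1β went with 1.52 ± 0.26 more NAMPT (n = 6 per arm; limma adjusted p = 0.172), and averaged over IL1β, TNFα went with 0.77 ± 0.26 more (adjusted p = 0.507). The departure from adding up was 0.21 ± 0.52 (adjusted p = 1.0), and it turned to −0.13 without TNFα replicate 2 and to −0.03 without IL1β replicate 2. It ran from −0.13 to 0.52 with single arrays left out and from −0.50 to 0.75 with passages left out.

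For NAMPT too the call with both cytokines was close to the threshold. With the passage as a block its limma adjusted p was 0.0797, and with the compared groups alone it was 0.162. The call held without replicate 1 of both cytokines (adjusted p = 0.0483) and did not when any of the other 5 arrays was left out (0.0781 to 0.167). The log2 change stayed between 2.07 and 2.64 under the alternatives run. Within passages 13, 28 and 15 both cytokines exceeded the vehicle culture by 1.59, 2.71 and 2.56, IL1β by 1.70, 1.02 and 1.51, and TNFα by 0.74, 0.06 and 1.19. Both cytokines minus IL1β alone gave −0.12 in passage 13, 1.69 in passage 28 and 1.05 in passage 15.

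The second NAMPT probe was dim, below the array median on 10 of 12 arrays. It stood at 0.803, 1.53 and 1.54 with both cytokines, 0.761, 0.699 and 0.918 with TNFα, 1.00, 0.654 and 0.741 with IL1β, and 0.664, 0.724 and 0.668 with vehicle. All 3 arrays with both cytokines lay above all 3 vehicle arrays, and replicates 2 and 3 with both cytokines stood above every other array. The change of 0.85 ± 0.28 did not pass (limma adjusted p = 0.250). NAMPT has pseudogenes elsewhere in the genome, and how far they add to either probe was not tested.

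A NAMPT promoter window is shown beside that of KYNU as that of the other gene called. The RefSeq window is chr7:106284934-106285233 on the minus strand of GRCh38.p14, with capitals for the same patterns. NAMPT itself spans 106248298 to 106285888, so the window and its start lie inside the gene and not at its outer end. The bases beyond that end were not searched.
NAMPT: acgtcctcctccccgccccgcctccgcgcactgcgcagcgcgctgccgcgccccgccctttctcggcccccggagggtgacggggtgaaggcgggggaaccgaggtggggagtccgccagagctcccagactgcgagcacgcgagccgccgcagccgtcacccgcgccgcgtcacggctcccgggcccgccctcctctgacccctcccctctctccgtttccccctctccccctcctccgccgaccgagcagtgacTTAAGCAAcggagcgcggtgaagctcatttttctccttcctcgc
Its single match was to the C/EBP pattern, at 7 to 14 from the start used for the window. The window had no match to TTCNNNGAA, the NF-kB consensus or TGANTCA. The 2 windows shared no match other than the C/EBP pattern, but only the KYNU window lies at the start of its gene's span.

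**Figure D2:**
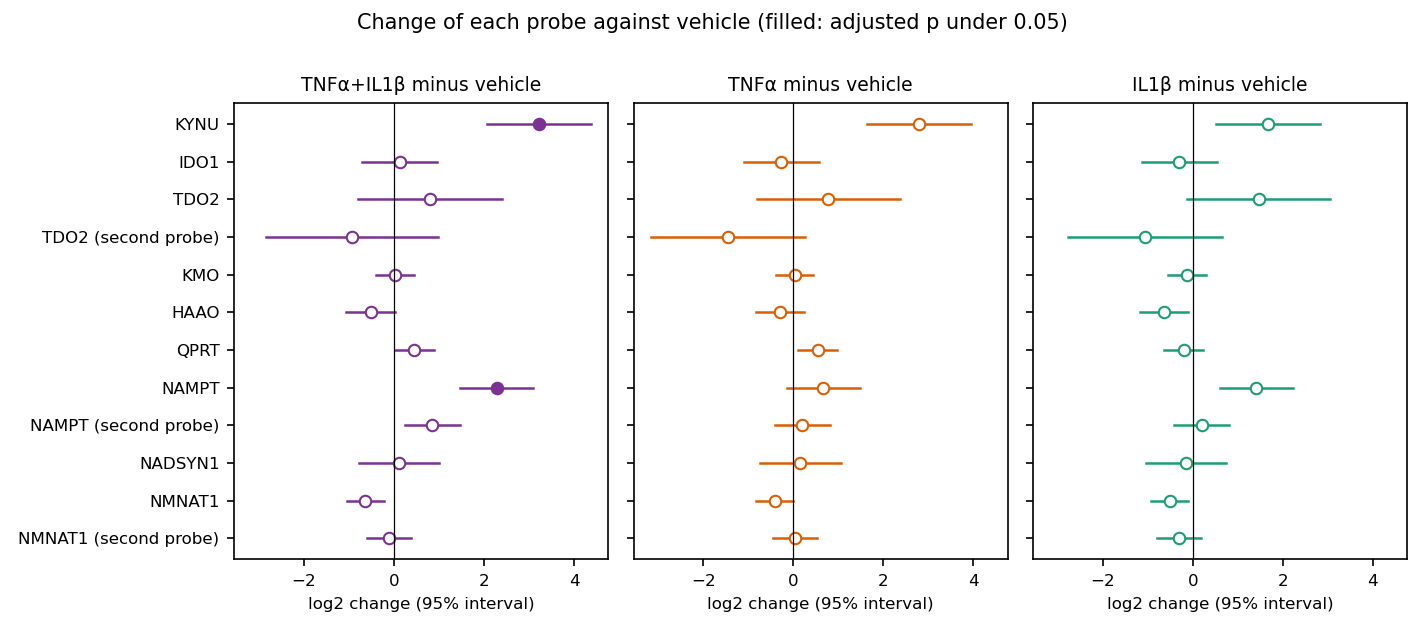
Change of log2 intensity against vehicle for the 12 probes with both cytokines, TNFα alone and IL1β alone, with 95% intervals from limma. Filled points, KYNU (3.23) and NAMPT (2.29) with both cytokines, had an adjusted p under 0.05, and open points did not.

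At the first step of the pathway no change passed. IDO1 stood at 0.584, 0.465 and 0.324 with both cytokines, 0.219, 0.350 and 0.506 with TNFα, 0.372, 0.256 and 0.378 with IL1β, and 0.358, 0.612 and 0.309 with vehicle. It lay below the array median on all 12 arrays, and the groups overlapped. The change with both cytokines was 0.12 (95% interval −0.71 to 0.96; limma adjusted p = 0.927).

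TDO2, the other enzyme of that step, was dim on both probes. The first probe ranged from 0.878 to 1.14 with both cytokines, 0.756 to 1.12 with TNFα, 0.998 to 3.35 with IL1β and 0.160 to 1.45 with vehicle. The highest value was that of IL1β replicate 3. The second probe lay below the array median on all 12 arrays, at most 0.400, and 1 of its values with both cytokines lay below 0 and was left out of the fit. In no comparison did the 2 probes pass, and against vehicle they differed in sign, at 0.80 and −0.94 with both cytokines (adjusted p = 0.683 and 0.688).

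KMO and KYNU both act on kynurenine. The KMO intensity ran from 3.25 to 3.52 with both cytokines, 3.20 to 3.59 with TNFα, 2.92 to 3.21 with IL1β and 2.61 to 3.92 with vehicle. The spread was widest with vehicle, which enclosed all 9 cytokine arrays. The change with both cytokines was 0.02 (95% interval −0.39 to 0.43; limma adjusted p = 0.978).

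HAAO, the enzyme after KYNU, stood at 13.3, 15.6 and 13.4 with both cytokines, 17.7, 19.5 and 12.8 with TNFα, 16.6, 10.0 and 13.4 with IL1β, and 23.1, 20.5 and 17.5 with vehicle. The arrays with both cytokines and with IL1β all lay below the vehicle arrays, while TNFα overlapped them. No change passed: −0.52 ± 0.24 with both cytokines (limma adjusted p = 0.398) and −0.63 ± 0.24 with IL1β (adjusted p = 0.459). After quantile normalization these were −0.34 and −0.41.

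QPRT, the enzyme that commits the pathway to NAD, separated by TNFα. It stood at 13.7, 10.4 and 11.1 with both cytokines, 11.9, 13.5 and 11.8 with TNFα, 7.62, 8.08 and 6.56 with IL1β, and 10.0, 8.50 and 7.24 with vehicle. Each of the 6 arrays with TNFα lay above each of the 6 without it. QPRT was the 1 probe of 11 with all 12 values to do so, where 0.396% of all probes did, and 0 of 11 lay wholly below, where 0.198% did. For IL1β the counts were 0 of 11 above (against 0.306%) and 0 below (against 1.75%). Averaged over IL1β, TNFα went with 0.60 ± 0.14 more QPRT, a 1.51-fold difference that did not pass (n = 6 per arm; limma adjusted p = 0.252).

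QPRT was 0.54 ± 0.19 higher with TNFα alone than with vehicle (limma adjusted p = 0.595) and 0.46 ± 0.19 higher with both cytokines (adjusted p = 0.358). It was 0.66 ± 0.19 higher with both cytokines than with IL1β alone (adjusted p = 0.945), and the change with IL1β alone was −0.20 (adjusted p = 0.770). Within passages 13, 28 and 15 TNFα alone exceeded vehicle by 0.25, 0.67 and 0.70, and both cytokines exceeded IL1β by 0.85, 0.37 and 0.76.

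The last steps of NAD synthesis did not pass in any comparison. The first NMNAT1 probe, for the nuclear adenylyltransferase, stood at 8.58, 7.58 and 7.38 with both cytokines, 10.2, 9.14 and 8.17 with TNFα, 8.40, 7.68 and 9.57 with IL1β, and 14.2, 12.3 and 10.3 with vehicle. All 9 cytokine arrays lay below all 3 vehicle arrays. Of all probes, 14.1% lay wholly below vehicle with both cytokines, 6.04% with TNFα and 9.15% with IL1β. These comparisons share the vehicle arrays, and the share for the 9 arrays together was not counted. For this NMNAT1 probe the change was −0.64 ± 0.19 with both cytokines (limma adjusted p = 0.220) and −0.42 ± 0.19 with TNFα (adjusted p = 0.710). With IL1β it was −0.51 ± 0.19 (adjusted p = 0.446), and −0.34 after quantile normalization.

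The second NMNAT1 probe did not share that separation. It ran from 1.98 to 2.12 with both cytokines, 2.00 to 2.58 with TNFα, 1.69 to 1.96 with IL1β and 1.63 to 2.91 with vehicle, and the change with both cytokines was −0.12 ± 0.22 (limma adjusted p = 0.869). NADSYN1, the NAD synthetase, ran from 3.81 to 4.63 with both cytokines, 2.75 to 5.69 with TNFα, 2.93 to 4.16 with IL1β and 2.06 to 6.18 with vehicle. Its lowest value was that of vehicle replicate 3 and its highest that of vehicle replicate 1, the 2 arrays at opposite ends of the first component. The change with both cytokines was 0.11 ± 0.40 (adjusted p = 0.940).

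**Figure D3:**
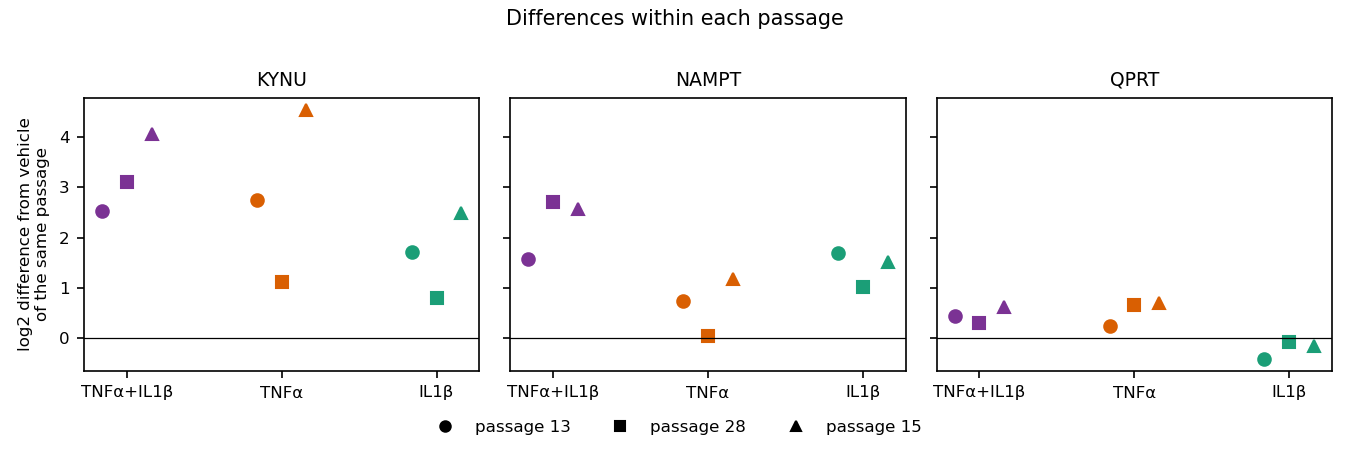
Log2 difference of each treated culture from the vehicle culture of the same passage, for KYNU, the first NAMPT probe and QPRT. All differences drawn for KYNU and NAMPT are above 0, from 0.81 to 4.52 for KYNU and from 0.06 to 2.71 for NAMPT. The QPRT differences are below 0 with IL1β. The second NAMPT probe, not drawn, was below vehicle in passage 28 with TNFα (−0.05) and with IL1β (−0.15).

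The genes whose log2 intensity was most like that of KYNU over the 12 arrays, among 16995 genes with 12 values, were SH3BP5L (Pearson r = 0.966), LAP3 (0.955), NINJ1 (0.952), CTSS (0.947) and ALKAL2 (0.946). Those most like NAMPT were ZC3H12A (0.947), ADORA2A (0.928), CXCL2 (0.927), GPX3 (0.925) and MAGEB3 (0.922). KYNU and NAMPT correlated with each other at 0.760. No gene stood in both lists. These correlations share the 12 arrays and their 4 treatments and are descriptions without a test.

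Around the pathway, 81 of 84 further genes in 7 lists were measured on their brightest probe, and limma called 0 of them in any of the 9 comparisons. At an unadjusted p under 0.05 there were 11 with both cytokines, 7 with TNFα and 5 with IL1β. These are 13.6%, 8.64% and 6.17% of the 81, against 12.7%, 6.61% and 8.14% of all 18106 genes, so the lists lay near the background. Their median change with both cytokines was 0.08, against −0.10 over all genes. The lowest adjusted p was that of AHR, the aryl hydrocarbon receptor to which kynurenine binds. AHR stood at 6.07, 5.23 and 4.99 with both cytokines, 4.87, 1.90 and 4.70 with TNFα, 4.55, 3.32 and 4.27 with IL1β, and 2.28, 1.13 and 1.03 with vehicle. Both cytokines and IL1β lay above all vehicle arrays, while TNFα replicate 2 did not, and the change of 1.96 ± 0.40 with both cytokines did not pass (adjusted p = 0.104). Its list, the receptor and its targets, held 8 genes with a median of 0.30 with both cytokines. AHR was the 1 gene of that list at an unadjusted p under 0.05, and no target was called.

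In the other lists the gene with the lowest p with both cytokines is named, and none passed. Among 9 further kynurenine genes it was the aminotransferase AADAT (−0.57 ± 0.19, limma adjusted p = 0.257), with a list median of −0.18. Among 10 further genes of NAD synthesis it was the mitochondrial NAD carrier SLC25A51 (−0.57 ± 0.26, adjusted p = 0.394), with a median of 0.04. Among 24 NAD-consuming enzymes it was the mitochondrial sirtuin SIRT4 (0.58 ± 0.19, adjusted p = 0.248), with a median of 0.05, and the 24 held no call in either direction. Among 10 genes of tryptophan uptake and other use it was the decarboxylase DDC (−0.83 ± 0.35, adjusted p = 0.362), with a median of 0.20. Among 8 genes of methyl donor supply and nicotinamide clearance it was methionine synthase MTR (−0.79 ± 0.19, adjusted p = 0.155), with a median of −0.19. Among 12 genes that act upstream of IDO1, such as the NF-kB subunit RELB (1.68 ± 0.42, adjusted p = 0.167), the median was 0.24.

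**Figure D4:**
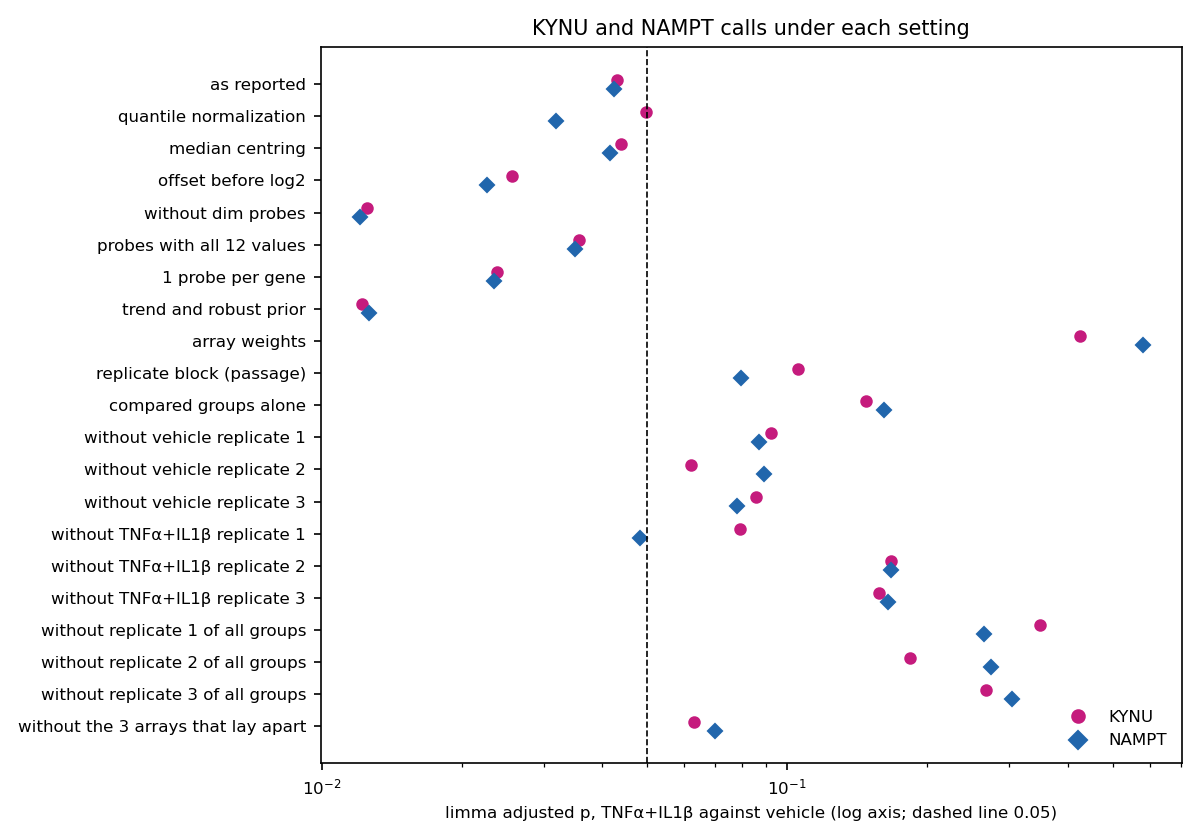
limma adjusted p of KYNU (circles) and NAMPT (diamonds) for both cytokines against vehicle, as reported and under each alternative, on a log axis with the threshold of 0.05 dashed. Values run from 0.0122 to 0.426 for KYNU and from 0.0121 to 0.580 for NAMPT, and those that leave out arrays lie above the threshold except NAMPT without replicate 1 of both cytokines.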

How the data were processed

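The authors deposited 1 linear intensity per probe from single-colour CodeLink arrays, each hybridised with 1 RNA per the labels. Software for image analysis, background and normalization is not given in the sources used here. The array medians lie near 1, from which median scaling by the authors was read. The missing code stood in 0.716% of values, and a further 1.10% at or below 0 were set to missing before log2. Those medians lay within 0.05 log2 of each other, and no scaling was added. The files carry no detection calls.

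Probes were named from the platform's gene table, updated by Entrez identifier, and 905 probes with several genes were not named. A gene's representative is its brightest single-gene probe. Group means were fitted to 12 arrays with limma 3.58.1 in R 4.3.3, for the 53671 probes that had 2 or more values in each group, with moderated two-sided tests and Benjamini-Hochberg adjustment. The fit was tested on simulated data. The members, lists and alternatives were chosen with earlier results of these data known. All member probes are named, and of each other list the called genes or the one with the lowest p. For KYNU and NAMPT the 5 most correlated genes are named too.

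The labels tie arrays with the same replicate number to the same passage. With group means removed, 18 same-number pairs correlated at 0.0071 on average (−0.20 to 0.31) and the 36 other pairs at −0.0029. The reported fit has no block, and the block is an alternative, as are quantile normalization, median centring, an offset of 0.1, filters on probes, other variance priors, array weights, the compared groups alone and left-out arrays. Leaving out the 3 arrays that lay apart was chosen after seeing the data. Promoters are from RefSeq tables of GRCh38.p14, where 8 of the 10 genes were searched. Besides KYNU and NAMPT, NMNAT1 held a match to the NF-kB consensus (first base −192) and TDO2 one to TGANTCA (−244). The other windows searched held no match to the patterns. Sequences of proteins were not used here.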

Additional observations from a re-analysis of the deposited data

How the results depend on the processing

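With both cytokines 2 member probes were called, and 2 in each of quantile normalization, median centring, the offset, both probe filters, 1 probe per gene and the trend and robust prior. The count was 0 with array weights, with the replicate block (the passage as a factor), in the compared groups alone and without the 3 arrays that lay apart, and 0 to 1 without single arrays or whole passages. With the block the adjusted p was 0.106 for KYNU and 0.0797 for NAMPT, and the block changed no other call on the 12 probes. For TNFα alone the count was 0, and 0 to 1 with arrays left out. For TNFα averaged over IL1β it was 0, and 1 (KYNU) with the offset, without dim probes, with 1 probe per gene, with the trend and robust prior and without TNFα replicate 2, so 0 to 1 with arrays left out. For IL1β averaged over TNFα it was 0, and 1 (NAMPT) without dim probes. In the other 5 comparisons it was 0 under every alternative run. The array weight estimate stopped before it converged.

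Changes of sign came with left-out arrays: KYNU with both cytokines minus TNFα gave −0.13 without TNFα replicate 2 and −0.34 without passage 28, and up to 0.95 without TNFα replicate 3. The NAMPT departure from adding up gave −0.13 without TNFα replicate 2, −0.03 without IL1β replicate 2 and −0.50 without passage 28, with up to 0.52 over single arrays and up to 0.75 over passages left out. The cause was not tested. Over all probes, 133 calls with both cytokines became 248 without dim probes, 219 with the trend and robust prior, 88 with the block, 77 without the 3 arrays that lay apart, 24 in the compared groups alone, 0 with array weights and 4 to 137 with arrays left out. Signals below the array median limit what can be measured. These are IDO1, the second TDO2 probe and vehicle KYNU, with the second NAMPT probe on 10 of 12 arrays and the first TDO2 probe on 6.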
